A study of Drosophila melanogaster with 12 samples.

Results

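The 3 transgenic EGFP::ASH1 lines were set together against wild type, using all 9 of their libraries and the 3 wild-type libraries, which make up the 12 libraries of the series. The members were chosen by the column headers: every library whose header names an EGFP::ASH1 transgene formed the transgenic side. RNA came from dissected wing discs of 3rd instar larvae of Drosophila melanogaster, and polyadenylated RNA was sequenced. Each genotype had 3 libraries, from RNA preparations that the study describes as independent.

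The transgenic larvae were transheterozygous for ash1[10] and ash1[22] in a w[1118] background and carried a transgene, marked with w+, for EGFP fused to ASH1 WT, ΔBAH or ΔBAH mutAT1. Wild-type larvae were w[1118] with intact ash1. ASH1 WT is the full-length protein, ΔBAH lacks the BAH domain, and in ΔBAH mutAT1 the first AT hook is mutated as well. The alphaTubulin promoter, which is active in most cells, drove all 3 transgenes from 1 landing site on chromosome arm 2L. Of the mutant alleles, ash1[10] has a point mutation in the SET domain and leaves a full-length protein without catalytic activity, and ash1[22] is truncated by a stop codon. The larvae descended from heterozygous mothers and so received wild-type maternal ash1. All 3 lines therefore shared the transgene position, the promoter and the mutant ash1 alleles. These, and any other difference in genetic background, cannot be told apart in a comparison with wild type, and no library carried the mutant alleles without a transgene or a transgene without the mutant alleles.

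ASH1 is a Trithorax group protein, a class of chromatin regulators that keep developmental genes active. Its SET domain methylates histone H3 at lysine 36, and its AT hooks and BAH domain contact DNA and nucleosomes. The wing disc is the larval epithelium that forms the wing and part of the thorax of the adult, and Hox genes, for which Trithorax proteins are best known, are among the genes regulated in imaginal discs.

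The deposited table held counts for 14869 genes, of which 2669 had no count in any library and 8346 passed the filter on low counts. Total counts were 15083960, 17828101 and 36837815 (lowest, median and highest) in the transgenic libraries, against 39180697, 29833138 and 16408197 in wild-type replicates 1, 2 and 3. Levels are given as CPM, read counts scaled to the library size with TMM factors. The common coefficient of variation between libraries of a genotype was 32.0%, which includes differences between sequencing runs. The study reports that the samples other than wild type clustered by run. Replicates 2 and 3 of ASH1 WT and of ΔBAH, from the same inferred run, had a chi-square per degree of freedom of 22.9 and 18.7. For other pairs of a genotype it was between 68.9 and 472. The main fit had no term for run. The summed level of 6 wing disc markers was between 1027 and 1784 CPM in the transgenic libraries and 1381, 1335 and 1782 CPM in wild-type replicates 1, 2 and 3. Larval fat body markers were not even: their summed level was between 16.7 and 265 CPM in the transgenic libraries and 2973, 17.5 and 377 CPM in wild-type replicates 1, 2 and 3. The summed level of 5 midgut markers was at most 0.537 CPM and that of testis markers at most 0.894 CPM in any library.

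The transgenic mean differed from wild type at 263 of the 8346 genes tested, or 3.15% (edgeR quasi-likelihood test, Benjamini-Hochberg adjusted p below 0.05, referred to as called). 142 genes were higher in the transgenic lines (1.70% of the genes tested) and 121 were lower (1.45%). Most genes moved little: the median absolute log2 fold change over all genes tested was 0.13. The median log2 fold change was -0.00, a value that the TMM scaling centres and that is no result of its own. The number of calls depended on the method and on the few wild-type libraries. DESeq2 called 518 genes and a fit with the inferred sequencing run as a covariate called 927, which held 261 of the 263. Without wild-type replicate 1, 2 or 3 the number was 141, 157 or 158. Of the 263 genes, 260 had the same sign within each of the 3 inferred runs, a description only, as the same libraries made the calls. Run 1 held no ASH1 WT or ΔBAH library, so its values compare ΔBAH mutAT1 replicate 1 with wild-type replicate 1.

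A gene was taken as shared by the lines when it was called, changed more than 2-fold in the same direction in each line, and had all 9 transgenic libraries beyond all 3 wild-type libraries. Of the genes tested, 107 were shared and higher in the transgenic lines (1.28%) and 70 were shared and lower (0.839%). Separation of the 9 from the 3 libraries alone held for 499 genes, or 5.98%. 96 of the shared genes were also called in each line tested singly. Without wild-type replicate 1 the number of shared genes was 113. Of the 86 other called genes, 35 were higher and 51 lower in the transgenic lines, and 57 differed by less than 2-fold in the mean. At the edge of the rule, CG4914 changed by at least 1.01 log2 units in every line and was included, whereas CG11034 reached only 0.99 in one line and was not.

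**Figure D1:**
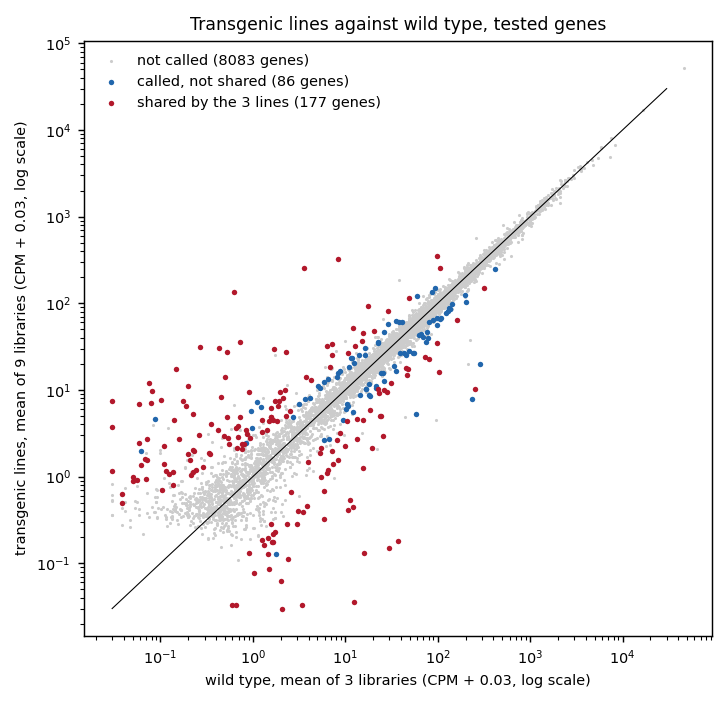
Mean CPM of the 9 transgenic libraries (vertical) against the mean CPM of the 3 wild-type libraries (horizontal) for the 8346 genes tested, both on log axes with 0.03 added. The line marks equal levels. The shared genes, 107 higher and 70 lower, lie on both sides of the line and mostly at low levels, while highly expressed genes lie close to it.

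The shared genes were mostly weakly expressed in the disc. Their median level over the 12 libraries was 3.36 CPM, against 38.7 CPM over all genes tested, and 12 shared genes exceeded 50 CPM. Among the 107 genes higher in the transgenic lines, 69 had a mean of under 1 CPM in wild type and 44 changed more than 10-fold. Their median log2 fold change was 2.69 and their range was 1.15 to 10.53. Among the 70 lower genes, 34 had a mean of under 1 CPM in the transgenic lines and 29 changed more than 10-fold. Their median log2 fold change was -2.94, between -10.48 and -1.07. These values were part of the rule and are given as a description. Protein-coding genes made up 166 of the shared genes, and 78 were known by a CG number only.

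The gene with the smallest p among the shared higher genes was NKCC, a sodium-potassium-chloride cotransporter that moves salt across cell membranes. Its level was 262, 325 and 370 CPM (lowest, median and highest) in the transgenic libraries and 6.86, 7.85 and 10.3 CPM in wild-type replicates 1, 2 and 3. The groups were far apart, and no transgenic library came near the wild-type range. The log2 fold change was 5.28 ± 0.20 (SE, adjusted p = 1.17e-07, edgeR), and 5.49, 5.45 and 4.90 within the 3 inferred runs. The other tested cation-chloride cotransporter gene was not called.

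Of the taste receptors of the Gr64 family, 4 were among the shared higher genes. Gr64 receptors sit in the membrane of gustatory neurons of the adult fly and detect sugars. Gr64a had 14.0, 15.3 and 26.1 CPM in the transgenic libraries, against 0.101, 0.068 and 0.185 CPM in wild-type replicates 1, 2 and 3. Its log2 fold change was 7.26 ± 0.31 (SE, adjusted p = 3.09e-07, edgeR). Gr64c had 6.30, 9.77 and 14.2 CPM in the transgenic libraries, against 0.0252, 0.0680 and 0.0616 CPM in wild type. Gr64b had 3.48, 6.78 and 12.4 CPM, against 0.0252, 0 and 0.123 CPM in wild type. Gr64f, a co-receptor for several sugars, had 3.62, 7.61 and 9.98 CPM in the transgenic libraries and no count in any wild-type library. All 9 transgenic libraries exceeded the wild-type libraries at these 4 genes, as the rule for shared genes required. In BDGP6 the exons of Gr64b and Gr64c overlap on the same strand over their full length of 2858 bases. The older gene models used for counting were not used here, so how reads were divided between these 2 genes is uncertain. Of 57 gustatory receptor genes counted, 6 passed the filter on low counts, among them these 4, which passed through their transgenic libraries alone, so that no share of the receptor list is given. A related chemosensory gene, the ionotropic receptor Ir76a, rose to between 4.37 and 10.7 CPM in the transgenic libraries (median 7.10), against 0.151, 0 and 0.0616 CPM in wild type. It was the single called gene of 8 ionotropic receptors tested, of which DESeq2 called 5 and limma-voom 3. Ir76a too passed the filter on low counts through its transgenic libraries alone, so that no share of this list is given. Of 5 odorant receptors tested 0 were called by edgeR, with 1 at an unadjusted p below 0.05, 1 called by DESeq2 and 0 by limma-voom.

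Cytochrome P450 enzymes, which oxidise hormones and foreign compounds, changed in both directions. Cyp4p2 had 86.0, 126 and 174 CPM in the transgenic libraries and 0.454, 0.204 and 1.11 CPM in wild-type replicates 1, 2 and 3, a log2 fold change of 7.95 ± 0.44 (SE, adjusted p = 2.28e-06, edgeR). Cyp4p1 had 19.7, 27.2 and 48.2 CPM in the transgenic libraries, against 0.202, 0.272 and 0.739 CPM in wild type. Both genes had few reads in wild type, between 6 and 18 counts in a library for Cyp4p2 and between 8 and 12 for Cyp4p1, and at least 359 counts in every transgenic library. Cyp6a17 went the other way, with 0, 0.431 and 7.31 CPM in the transgenic libraries and 19.6, 18.9 and 19.8 CPM in wild type. Cyp6t1 was higher at a very low level, with 0.176, 0.418 and 0.923 CPM in the transgenic libraries, against 0.0252, 0 and 0 CPM in wild type. The call of Cyp6t1 was lost without any 1 of the 3 wild-type libraries (adjusted p up to 0.0803, edgeR). In all, 3 P450 genes were higher and 2 lower among 35 tested. The 3 higher genes passed the filter on low counts only because of their transgenic libraries, so that no share of the P450 list is given. The median log2 fold change of the 35 was 0.12, against -0.00 over all genes. DESeq2 called 10 of the P450 genes and limma-voom 7.

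The other shared higher genes with the smallest p belonged to several processes. ppk29, a subunit of the DEG/ENaC sodium channels that has been linked to pheromone sensing, had 27.0, 31.8 and 36.5 CPM in the transgenic libraries and 6.83, 5.71 and 6.16 CPM in wild type. sunn, which is needed for the cohesion of sister chromatids in meiosis, had 5.90, 8.55 and 10.4 CPM in the transgenic libraries, against 0.328, 0.442 and 0.49 CPM in wild type. Oseg5, a component of the transport system inside cilia, had 3.34, 4.42 and 5.77 CPM in the transgenic libraries, against 0.202, 0.0680 and 0.0616 CPM in wild type. In each case the groups did not overlap, as the rule required. CG12129, CG15236, CG18547 and CG7730, genes known by number, had log2 fold changes of 5.68, 7.13, 4.11 and 2.28. The SE of these 4 values lay between 0.19 and 0.55. CG15236 overlaps genes on the opposite strand over 390 exonic bases, and strand use in counting is not given in the sources used here.

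**Figure D2:**
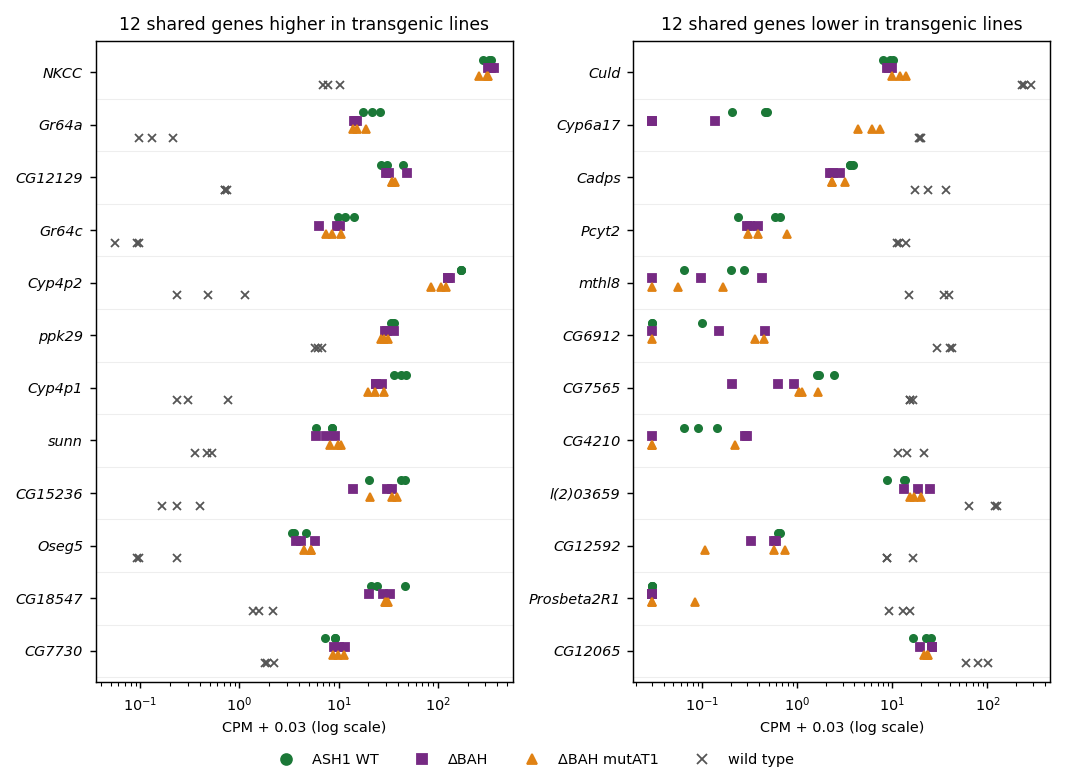
CPM of each library (0.03 added, log axis) for the 12 higher and the 12 lower shared genes ranked first by p. Rows are genes, and symbols mark ASH1 WT, ΔBAH, ΔBAH mutAT1 and wild type, with 3 libraries each. Transgenic and wild-type libraries are separated in every row, as the rule for shared genes required. At Cyp6a17 the ΔBAH mutAT1 libraries lie between the other transgenic lines and wild type.

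Among the shared lower genes, Culd had the smallest p. Culd is a CUB and LDL-receptor-class A domain protein, known from photoreceptor cells. It had 7.87, 9.91 and 13.8 CPM in the transgenic libraries and 290, 228 and 241 CPM in wild-type replicates 1, 2 and 3. The highest transgenic library was far below the lowest wild-type library. The log2 fold change was -4.65 ± 0.12 (SE, adjusted p = 5.02e-09, edgeR), with -4.38, -4.53 and -4.66 within the 3 inferred runs. Pcyt2, an enzyme of phosphatidylcholine synthesis, fell to 0.211, 0.358 and 0.759 CPM in the transgenic libraries, against 11.6, 13.7 and 11.2 CPM in wild type. Pcyt1, the neighbouring gene with the same enzymatic role, had a log2 fold change of -0.38 and was not called (adjusted p = 0.211, edgeR). mthl8, a receptor of the methuselah family, had 0, 0.0670 and 0.394 CPM in the transgenic libraries, against 35.0, 39.3 and 15.02 CPM in wild type. l(2)03659, an ABC transporter, had 8.85, 15.2 and 25.0 CPM in the transgenic libraries, against 126, 64.4 and 121 CPM in wild type.

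The remaining lower genes with the smallest p were known by number, apart from Cadps and Prosbeta2R1, which are described further on. CG6912 had at most 0.429 CPM in any transgenic library, against 41.9, 40.2 and 29.7 CPM in wild type. CG4210 had at most 0.268 CPM in any transgenic library, against 14.2, 21.6 and 11.3 CPM in wild type. CG7565 had 0.179, 1.10 and 2.40 CPM in the transgenic libraries, against 15.3, 16.3 and 15.3 CPM in wild type. CG6912 and CG4210 were thus close to the limit of detection in the transgenic lines, whereas CG7565 was still detected in every transgenic library. CG12592 and CG12065 had log2 fold changes of -4.48 ± 0.40 and -1.83 ± 0.17 (SE).

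Several shared genes act in the signalling of nerve cells, a grouping made after their values were seen and so given without a count of its own. Cadps, which primes dense-core vesicles for release, had 2.16, 2.79 and 3.87 CPM in the transgenic libraries and 17.3, 23.8 and 36.5 CPM in wild-type replicates 1, 2 and 3. TkR86C, a neuropeptide receptor of the tachykinin receptor family, had 0, 0.356 and 0.852 CPM in the transgenic libraries, against 14.6, 10.9 and 6.34 CPM in wild type. Snap25, a SNARE protein of synaptic vesicle fusion, had a log2 fold change of -2.47 ± 0.32 (SE). Further lower genes were tipE, an auxiliary subunit of the voltage-gated sodium channel, with -2.15, and unc79, a part of a sodium leak channel complex, with -1.66. The receptor genes nAChRalpha1 (acetylcholine) and HisCl1 (histamine) had log2 fold changes of -4.52 and -4.40. Other genes of this kind were higher in the transgenic lines: SK, a calcium-activated potassium channel, with a log2 fold change of 4.81 ± 1.13 (SE), stj, a calcium channel subunit, with 2.86 ± 0.58 (SE), and hig, a protein of the synaptic cleft. The direction was therefore not uniform. The list of neuron markers had 3 tested genes, 0 of them called by edgeR, DESeq2 or limma-voom and 1 with an unadjusted p below 0.05 in edgeR, and its summed level was 11.2 to 43.0 CPM in the transgenic libraries and 31.0, 12.2 and 44.6 CPM in wild-type replicates 1, 2 and 3. In bulk tissue, fewer cells of a type and less RNA per cell cannot be told apart.

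Membrane transporters and the genes krimp, Hr38, Ldh and daw were also singled out after their values were seen. Of the transporters, Mrp5 and Abca3, both ABC transporters, were higher with log2 fold changes of 2.74 ± 0.36 and 2.14 ± 0.45 (SE). CNT2 and Ent3, which carry nucleosides, were lower with -3.07 ± 0.43 and -3.24 ± 0.65 (SE), and so was the organic anion transporter Oatp26F with -3.90 ± 0.91 (SE). krimp, a Tudor domain protein of the piRNA pathway that silences transposons in the germ line, rose to 11.5, 26.0 and 51.2 CPM in the transgenic libraries, against 2.29, 3.98 and 0.554 CPM in wild type. Hr38, a nuclear receptor, had 5.65, 12.3 and 15.9 CPM in the transgenic libraries, against 0.0252, 0.170 and 0.308 CPM in wild type. Ldh, the lactate dehydrogenase gene, had 13.4, 16.6 and 23.3 CPM in the transgenic libraries, against 59.9, 36.3 and 40.8 CPM in wild type. daw, an Activin-type ligand, had 2.27, 4.25 and 6.10 CPM in the transgenic libraries, against 14.6, 16.9 and 14.5 CPM in wild type. The transgenic and wild-type libraries did not overlap at any of these genes, as the rule required. At Oatp26F they barely separated: the highest transgenic library had 0.4920 CPM and the lowest wild-type library 0.4926 CPM (adjusted p = 0.0437, edgeR).

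A gene was called on when every transgenic library had at least 10 counts and every wild-type library at most 3, and off in the reverse case. There were 10 on genes and 5 off genes. With a limit of at most 1 or at most 5 counts the total was 8 or 24, and without wild-type replicate 1 it was 24. The 3 on genes with no count in any wild-type library were Gr64f, Unc-115b and CG3191. Against a floor of 3 counts per wild-type library, the mean CPM of the transgenic libraries was at least 62.1-fold higher for Gr64f, at least 30.6-fold higher for Unc-115b and at least 9.33-fold higher for CG3191. Unc-115b encodes an actin-binding protein, and its counts in the transgenic libraries were 21, 48 and 214. Counts of CG3191 were 10, 26 and 70 in the transgenic libraries.

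The other 7 on genes had a few wild-type reads. p24-2, of a family of cargo receptors of the early secretory pathway, had 54, 128 and 444 counts in the transgenic libraries, against 1, 0 and 1 in wild-type replicates 1, 2 and 3. Its pooled ratio of transgenic to wild type was 276, with a 95% exact interval of 76.3 to 2281 that covers counting error only. In BDGP6 the exons of p24-2 and Unc-115b overlap over 3535 bases on the same strand, so these 2 genes may share reads. p24-2 was not called with limma-voom (adjusted p = 0.147). Their close relatives behaved differently: Unc-115a had a log2 fold change of -0.04 and eca one of -0.11, and neither was called. Reads from near-identical copies may have been split in counting, which was not tested. The pooled ratio was 201 (78.5 to 740) for Gr64c, 188 (64.2 to 912) for Gr64b and 104 (28.6 to 859) for Lgr4, a leucine-rich repeat G protein-coupled receptor. It was 42.1 (14.3 to 205) for side-VI, a cell surface protein of the sidestep family that guides motor axons, 37.1 (12.6 to 181) for antr and 25.8 (12.4 to 64.5) for CG6184.

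The clearest off gene was Prosbeta2R1, which encodes a proteasome subunit related to Prosbeta2 and made in testis. It had at most 2 counts in any transgenic library, against 15.5, 12.8 and 9.17 CPM in wild-type replicates 1, 2 and 3. The pooled ratio, here of wild type to transgenic, was 1425 with a 95% exact interval of 394 to 11781. CG12111 had no count in any of the 9 transgenic libraries, against 122, 62 and 16 counts in wild type, and was at least 14.4-fold lower in the transgenic lines against a floor of 3 counts per library. CG32318 had at most 1 count in a transgenic library and CG8773 at most 3, against 40 to 138 and 24 to 102 counts in wild type. CG33346 had at most 1 count in a transgenic library, against 12 to 21 counts in wild type. The call of CG12111 by edgeR's test was lost without wild-type replicate 1 or 2 (adjusted p up to 0.208 over all alternatives, the highest with DESeq2).

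**Figure D3:**
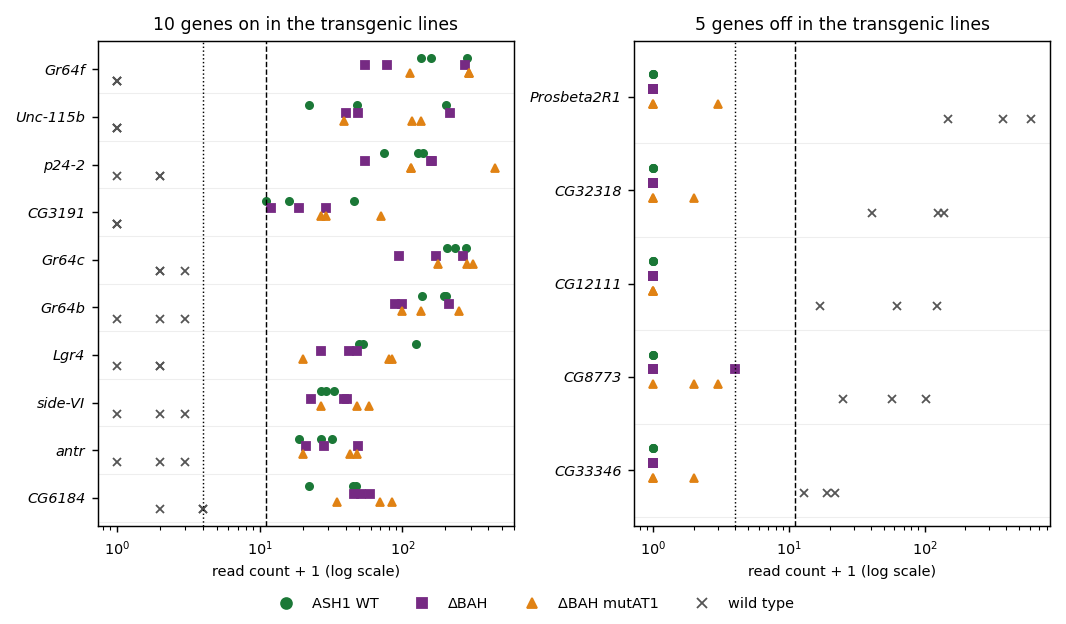
Read counts of each library (1 added, log axis) for the 10 on genes and the 5 off genes. Dotted and dashed lines mark 3 and 10 counts, the limits of the rule, and symbols mark ASH1 WT, ΔBAH, ΔBAH mutAT1 and wild type. By the rule, no library lies between the 2 lines.

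Called genes that lie next to each other were looked for along the chromosome arms, with positions taken from the BDGP6 annotation for order only. A set was at least 3 genes called in the same direction with at most 1 uncalled tested gene between successive members. Of the 263 called genes 245 could be placed, and 3 sets with 11 genes in all were found. With up to 3 uncalled genes between members there were 5 sets with 19 genes. With the inferred run as a covariate there were 27 sets with 92 genes. Without the third replicate of any genotype 2 sets with 7 genes were left. Between adjacent tested genes, which may have untested genes between them, 19 pairs of called genes had the same direction and 8 had opposite directions. The pairs include Gr64 genes, which passed the filter through their transgenic libraries alone, and the number to be expected was not worked out.

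The largest set was on 3L and consisted of CG11594, Gr64a, Gr64c, Gr64b and Gr64f, all higher in the transgenic lines. CG11594, which lies beside the Gr64 cluster on the opposite strand, had 22.4, 26.7 and 32.4 CPM in the transgenic libraries, against 1.13, 0.170 and 0.185 CPM in wild type. The rise ended abruptly on both sides. Mul1, the next tested gene on the side of CG11594, had a log2 fold change of 0.10 ± 0.20 (SE), and CG11593, beyond Gr64f, had -0.04 ± 0.10 (SE). CG11593 was at 72.4, 83.03 and 92.1 CPM in the transgenic libraries, against 83.4, 81.3 and 89.2 CPM in wild type. Gr64d and Gr64e, the remaining genes of the cluster, did not pass the filter. Gr64d had between 0 and 10 counts and Gr64e between 0 and 16 counts in the transgenic libraries, and both had 0 counts in all wild-type libraries.

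The set on 2R consisted of hig, Cyp4p2 and Cyp4p1, again all higher in the transgenic lines. hig had 1.36, 2.89 and 3.65 CPM in the transgenic libraries, against 0.227, 0.0340 and 0.123 CPM in wild type. Cyp4p3, the remaining member of the P450 cluster, had between 0 and 28 counts in the transgenic libraries and none in wild type, but was not called (adjusted p = 0.0910, edgeR). Gnptab, on the other side of hig, had a log2 fold change of 0.30 ± 0.17 (SE) and was not called. The third set comprised mthl8, Lsp1gamma and Pdk1, the first 3 tested genes of 3L, all lower in the transgenic lines. Lsp1gamma, a storage protein of the fat body, had 1.02, 3.43 and 42.6 CPM in the transgenic libraries and 568.4, 2.92 and 125 CPM in wild-type replicates 1, 2 and 3, so that the groups overlapped. Pdk1, a kinase of insulin signalling, had 94.6, 124 and 155.2 CPM in the transgenic libraries, against 194, 190 and 213 CPM in wild type. The call of Lsp1gamma by edgeR was lost without wild-type replicate 1 (adjusted p = 0.265) and without ASH1 WT replicate 3 or ΔBAH replicate 2 or 3 (up to 0.0533). That of Pdk1 was lost without any 1 of the 3 wild-type libraries (adjusted p up to 0.173, edgeR) and without ASH1 WT replicate 3 or any ΔBAH mutAT1 replicate (up to 0.0689).

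**Figure D4:**
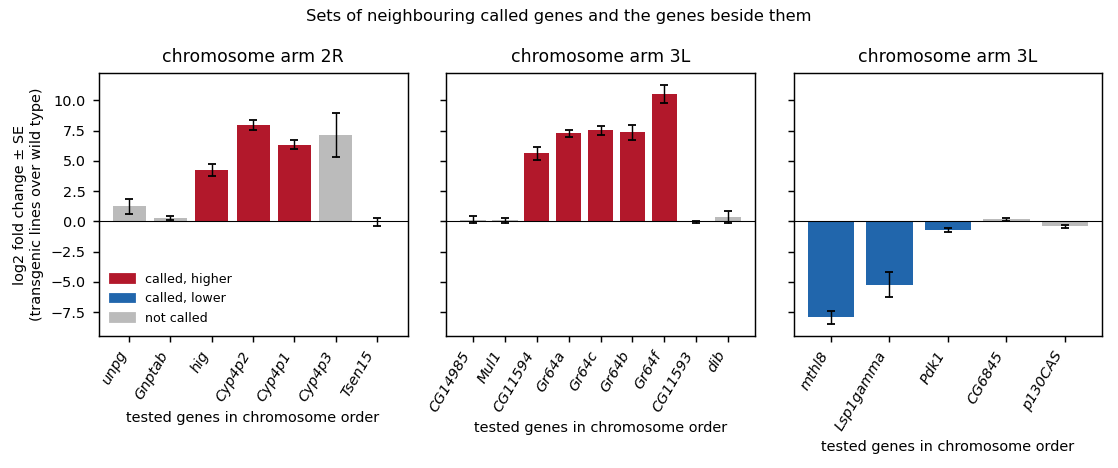
Log2 fold change of the transgenic mean over wild type with its SE for the members of the 3 sets and up to 2 tested genes on each side, in chromosome order. Bars for called genes are coloured by direction and uncalled genes are grey. The change at the Gr64 set stops at Mul1 and CG11593, and Cyp4p3 beside the 2R set has a high but uncalled value.

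Called genes were spread over all chromosome arms. The share called was 1.99% of 1304 tested genes on X, 2.10% on 2L, 3.83% on 2R, 4.45% on 3L, 3.31% on 3R and 4.35% of the 69 tested genes on chromosome 4. On 3L, in windows of 50 tested genes counted outward from ash1, the share lay between 0% and 16%, and the window with 16% held the Gr64 set. The 50 tested genes on one side of ash1 held 2 called genes and the 50 on the other side held 3. ash1 itself rose: it had 154.5, 388 and 534 CPM in the transgenic libraries and 85.6, 99.1 and 112 CPM in wild-type replicates 1, 2 and 3. These counts sum transcripts of the mutant alleles and of the transgene. The log2 fold change was 1.82 ± 0.39 (SE, adjusted p = 0.0274, edgeR), with 2.00, 0.92 and 2.00 within the 3 inferred runs. The call was lost without wild-type replicate 1, 2 or 3 (adjusted p = 0.165, 0.131 and 0.113, edgeR). It was also lost without the third replicate of ASH1 WT or ΔBAH or the first of ΔBAH mutAT1 (adjusted p up to 0.0558, edgeR). DESeq2 and limma-voom called ash1 too (adjusted p = 4.67e-05 and 0.0160), and with the inferred run as a covariate in edgeR its log2 fold change was 1.58 (adjusted p = 0.000297). The next tested genes beside ash1, CG14100 and Taf6, had log2 fold changes of -0.20 and 0.17 and were not called.

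The marker gene white (w), which encodes an eye pigment transporter, differed in level between the lines, although all transgenic labels name a w+ transgene. In ΔBAH it had 36.8, 33.1 and 31.0 CPM and in ΔBAH mutAT1 43.1, 46.6 and 35.2 CPM. In ASH1 WT it had 0.984, 0.308 and 0.227 CPM, against 0.630, 3.94 and 0.554 CPM in wild-type replicates 1, 2 and 3. ASH1 WT thus overlapped with wild type, and the other lines did not. The adjusted p was 0.0642 for the mean of the lines against wild type and 0.05004 for the difference among the lines (edgeR), just above the threshold. The reason for the low values of ASH1 WT was not tested.

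**Figure D5:**
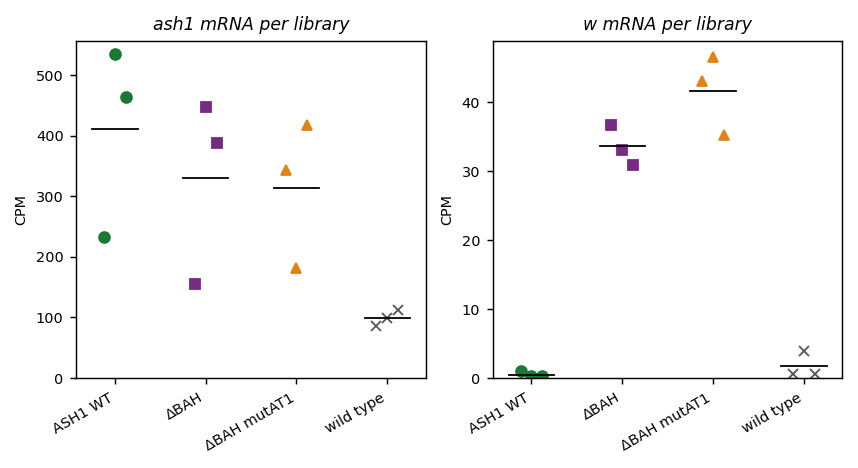
CPM of ash1 (left) and of the marker gene w (right) in the 3 libraries of ASH1 WT, ΔBAH, ΔBAH mutAT1 and wild type, with the mean of each genotype as a bar. ash1 lies above wild type in all 9 transgenic libraries, and w is high in ΔBAH and ΔBAH mutAT1 only.

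The difference between the largest and the smallest log2 fold change of a shared gene in the 3 lines had a median of 0.51. It was under 1 for 137 genes and at least 1 for 40, with the highest value, 6.79, at Cyp6a17. The strongest change was in ASH1 WT for 62 genes, in ΔBAH for 56 and in ΔBAH mutAT1 for 59. As the rule asked for a change in every line and the lines were compared with the same wild-type libraries, these values are a description. The direct test for a difference among the lines makes no comparison with wild type, whose libraries enter the estimate of the spread. This test called 3 genes (0.0359% of the genes tested) and had 140 genes with an unadjusted p below 0.05. DESeq2 called 21 and the fit with the inferred run called 9.

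Of these 3 genes Cyp6a17 was the single shared one. This P450 had 0.176, 0.431 and 0.454 CPM in ASH1 WT, 0.107, 0 and 0 CPM in ΔBAH and 7.31, 4.34 and 6.03 CPM in ΔBAH mutAT1 (adjusted p = 0.00115 among the lines, edgeR). Its level in ΔBAH mutAT1 was thus higher than in the other lines and lower than in wild type. In a model that pooled the 9 transgenic libraries as 1 group, Cyp6a17 was not called (adjusted p = 0.160, edgeR). CG32572 had 7.17, 9.47 and 6.76 CPM in ASH1 WT and 6.98, 5.35 and 5.36 CPM in ΔBAH. In ΔBAH mutAT1 it had 0.0821, 0 and 0.0597 CPM, within the range of 0.0756, 0.0340 and 0.0616 CPM in wild type (adjusted p = 0.00115 among the lines, edgeR). CG32572 was called in the mean contrast but not shared, and that call was lost with the lines pooled as 1 group and without the ASH1 WT line (adjusted p up to 0.129, edgeR). CG15128 had 3.83, 3.87 and 3.75 CPM in ASH1 WT, 2.72, 0.842 and 1.54 CPM in ΔBAH and 0 CPM in all 3 ΔBAH mutAT1 libraries. Its wild-type libraries had 0.0504, 0.0680 and 0 CPM (adjusted p = 0.0340 among the lines, edgeR).

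Developmental regulators and hormone response genes were examined list by list, and are read against the 3.15% called over all genes tested. At that share a short list may hold 0 calls, so 0 calls in such a list does not set its genes apart from the rest. Of 4 Hox genes, 15 Polycomb group genes, 17 Trithorax group genes other than ash1 and 34 genes of wing patterning tested, 0 were called by edgeR's test. Their median log2 fold changes were -0.45, 0.01, 0.01 and -0.07. At an unadjusted p below 0.05 there were 2 wing patterning genes and 0 of the other 3 lists, and DESeq2 called 1 wing patterning gene, rho, and limma-voom 0. Of 6 tested ASH1 partners and H3K36 enzymes and 5 genes of dosage compensation, 0 were called by any of the 3 tools and 0 had an unadjusted p below 0.05 in edgeR. Among 14 genes of the JNK and damage response, edgeR and limma-voom called 0 and DESeq2 called 2, upd1 and Mmp1, and 4 had an unadjusted p below 0.05 in edgeR. Of 12 ecdysone response genes edgeR called 1 and DESeq2 called 2, Hr3 and ImpE2, and 5 had an unadjusted p below 0.05 in edgeR. Single members went both ways: the log2 fold changes of the 12 lay between -0.98 and 0.93, with a median of -0.20. The summed level of the 12, in which abundant genes weigh most, was between 5470 and 8340 CPM in the transgenic libraries. It was 9370, 9913 and 10257 CPM in wild-type replicates 1, 2 and 3, so that every transgenic library was below every wild-type library in this sum. Hr3, a nuclear receptor that rises after ecdysone pulses, had 71.1, 102 and 136 CPM in the transgenic libraries, against 254, 171 and 184 CPM in wild type. The call of Hr3 was lost without wild-type replicate 1 (adjusted p = 0.137, edgeR).

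Further lists covered housekeeping genes, Notch targets and families of enzymes and surface proteins, and are read against the 3.15% called over all genes tested. Of 71 cytoplasmic ribosomal protein genes and 11 Notch target genes of the E(spl) complex, 0 were called by edgeR, DESeq2 or limma-voom and 0 had an unadjusted p below 0.05. Of 24 glutathione S-transferases edgeR called 0, with 3 at an unadjusted p below 0.05 and 0 calls by the other tools. Of 20 mitochondrially encoded genes edgeR called 0, with 3 at an unadjusted p below 0.05 and 2 called by DESeq2 and 0 by limma-voom. UDP-glycosyltransferases, which attach sugars to small molecules, had 2 higher and 2 lower genes among 14 tested (5 genes called by DESeq2 and 3 by limma-voom). Ugt49C1, among the higher ones, passed the filter on low counts only because of its transgenic libraries, so that no share is given for these enzymes. Ugt302K1 had 20.9, 35.99 and 41.8 CPM in the transgenic libraries, against 86.0, 115 and 93.7 CPM in wild type, and Ugt36D1 had 41.4, 45.4 and 52.9 CPM, against 26.4, 27.4 and 24.4 CPM in wild type. The other 2 were Ugt50B3, which was lower, and Ugt49C1, whose call (adjusted p = 0.0444, edgeR) was lost under most of the alternatives tried (adjusted p up to 0.214). Serpins, inhibitors of serine proteases, had 2 higher genes among 13 tested (15.4%, with 4 called by DESeq2 and 2 by limma-voom), Spn47C with a log2 fold change of 3.33 ± 0.28 (SE) and Spn42De with 1.98 ± 0.37 (SE). Cuticle proteins had 1 higher gene, Cpr64Aa with 2.36 ± 0.48 (SE), and 1 lower gene, TwdlT with -1.58 ± 0.29 (SE), among 35 tested (5.71%). DESeq2 called 7 cuticle protein genes and limma-voom 2, and 10 had an unadjusted p below 0.05 in edgeR. Single genes were called among heat shock proteins (Hsp67Ba, log2 fold change -0.75), tweedle and mucin genes (Muc91C, -3.46) and tetraspanins (Tsp42Ed, 2.49). Several of these calls were lost without 1 wild-type library: those of Tsp42Ed and Spn42De without any 1 of the 3 (adjusted p up to 0.162 and 0.0778, edgeR), that of Cpr64Aa without replicate 1 or 3 (up to 0.120), and those of TwdlT and Muc91C without replicate 1 or 2 (up to 0.0886 and, over all alternatives, 0.0679). That of Tsp42Ed was also lost without any 1 of 6 transgenic libraries, replicates 2 and 3 of ASH1 WT, 1 and 2 of ΔBAH and 1 and 3 of ΔBAH mutAT1 (up to 0.0693, edgeR). Hsp67Ba overlaps an antisense RNA gene over 1316 exonic bases and cannot be told apart from it without strand information.

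The larval fat body list was uneven among the wild-type libraries: its summed level in wild-type replicates 1 and 3 was above that of every transgenic library, and in replicate 2 it was not. Of its 7 genes 3 were called lower in the transgenic lines (Lsp1gamma, apolpp and Lsp1beta) and the median log2 fold change was -3.50, but none was shared. Lsp1beta had 4.66, 15.9 and 57.6 CPM in the transgenic libraries, against 727, 5.98 and 136 CPM in wild-type replicates 1, 2 and 3. Within the 3 inferred runs the log2 differences were -3.87, 1.10 and -2.16 for apolpp, -3.66, 1.71 and -3.82 for Lsp1beta and -3.74, 0.27 and -5.38 for Lsp1gamma, so that the run of wild-type replicate 2 was positive and the other runs negative. DESeq2 called 4 of the 7, limma-voom 0, and 6 had an unadjusted p below 0.05 in edgeR. Without wild-type replicate 1 none of the 3 was called by edgeR (adjusted p up to 1.00). The calls of apolpp and Lsp1beta were also lost without any 1 of 8 transgenic libraries, all but ΔBAH replicate 1 (adjusted p up to 0.0912 and 0.0932, edgeR), and that of Lsp1beta without wild-type replicate 3. The part of carried-over fat body in other calls was not tested. The 9 hemocyte, 7 larval muscle and 6 adult muscle precursor markers tested had 0 calls in edgeR and limma-voom, 1 each in DESeq2, and 2, 1 and 1 genes at an unadjusted p below 0.05 in edgeR.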

How the data were processed

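Wing-disc RNA was sequenced from 4 genotypes with 3 libraries each. Per the study's methods, the authors aligned single-end reads to dm3 with TopHat 2.0.9 and counted them per Ensembl gene with HTSeq 0.5.4p3. The deposited table holds these raw counts. Counting options are not given in the sources used here. Symbols (13524 of 14869 identifiers), arm, order, strand and overlaps came from BDGP6, so no coordinates are given.

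The analysis used edgeR 4.0.16 (R 4.3.3; filterByExpr with a minimum count of 10, TMM, 1 coefficient per genotype over 12 libraries, quasi-likelihood test, prior count of 0.125). The contrast was the mean of the 3 lines minus wild type, and a 2-degree-of-freedom test compared the lines. SE came from the log2 fold change and F. P-values were Benjamini-Hochberg adjusted over 8346 genes. Within-run values are differences of log2 CPM with a prior count of 2. Runs were inferred from blocks of internal sample numbers: run 1 held wild type 1 and ΔBAH mutAT1 1, run 2 ΔBAH 1, ASH1 WT 1, wild type 2 and ΔBAH mutAT1 2, and run 3 the rest. Depth was 15083960 to 39180697 counts. Intervals cover counting error only. No libraries were copies of each other. The procedure was tested on simulated data.

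Members and gene lists were chosen with earlier results of these data known. Named genes were ash1, w, the 12 shared genes per direction with the smallest p, on and off genes, members of neighbouring sets, up to 4 called genes per list and genes that differed among the lines. Others were named after their values were seen. Alternatives were RLE factors, DESeq2 1.42.0, limma-voom 3.58.1, other filters, a replicate block, the run as covariate, a 2-group model, other thresholds, and leaving out each library or line.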

Additional observations from a re-analysis of the deposited data

Results flagged for a closer look

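Among the 9 transgenic libraries, 7 named genes had 1 library set apart from the rest on the scale of log2(CPM + 0.1). Chance alone sets apart about 1 in 20 groups of values, and 61 genes were looked at. Lsp1gamma was at 5.42 (42.6 CPM) in ΔBAH mutAT1 replicate 1, against 6.40 CPM in the next library. TwdlT was lowest at 0.78 (1.61 CPM) in ΔBAH mutAT1 replicate 3, with 3.69 CPM in the next library. CG12592 was lowest at -2.49 (0.0785 CPM) in ΔBAH mutAT1 replicate 2, with 0.301 CPM in the next. The other 4 are off genes, where the distance came from 1 to 3 reads: CG8773 at -1.83 in ΔBAH replicate 2, and CG33346 at -2.97, CG32318 at -2.97 and Prosbeta2R1 at -2.69 in ΔBAH mutAT1 replicate 1. The genes with a different effect in the 3 lines were Cyp6a17 (adjusted p = 0.00115), CG32572 (adjusted p = 0.00115) and CG15128 (adjusted p = 0.0340) in edgeR's test among the lines.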

How the results depend on the processing

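Across 61 named genes and their alternatives, 57 never changed sign, and 42 kept both their sign and their side of the threshold. The sign turned within 1 inferred run for CG15128 (-0.70), apolpp (1.10), Lsp1beta (1.71) and Lsp1gamma (0.27). For CG15128 this was run 1, whose only transgenic library was of ΔBAH mutAT1, the line without CG15128 counts. Leaving out 1 library gave 141 to 272 called genes, 113 to 192 shared genes, 2 to 4 genes that differed among the lines, 7 to 11 genes in neighbouring sets, 15 to 24 on and off genes, and 1.72 to 1.95 for the log2 fold change of ash1. Called genes numbered 518 with DESeq2 and 927 with the run as a covariate. Genes that differed among the lines numbered 6 with RLE factors, 5 without a filter, 5 with limma-voom, 21 with DESeq2 and 9 with the run. Genes in neighbouring sets numbered 38 with DESeq2, 92 with the run and 19 with up to 3 uncalled genes between members. On and off genes numbered 8 with at most 1 and 24 with at most 5 counts. ash1 was 1.70 and no longer called without the ASH1 WT line. The cause of these differences was not tested. The replicate block gave 271 called genes and 109 higher and 68 lower shared genes. Of the named genes it lost the calls of CG12111 (adjusted p = 0.0537), Ugt49C1 (0.0835), apolpp (0.124), Lsp1beta (0.130) and Lsp1gamma (0.0690). Correlations of deviations between same-numbered libraries of a line and wild type ranged from -0.45 to 0.49. They were above 0.1 in all 3 pairs for ΔBAH mutAT1 (0.42 to 0.49) but in 1 of 3 pairs for ASH1 WT and for ΔBAH. The replicate numbers were therefore not taken to pair the libraries of the pooled comparison. The pairs above 0.1 were those from the same inferred run, and pairs from different runs had at most 0.0851. Run was examined with the covariate and the within-run values. With 3 wild-type libraries, genes under about 1 CPM are the least certain.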
